A study of Mus musculus with 8 samples.

Results

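The genes described here are named for the proteins of the cytosolic ribosome. They were taken by name from the annotated protein-coding genes of mouse, as symbols that start with Rpl or Rps followed by a protein number, a stalk letter or an a, leaving out the S6 kinase genes and Rps27l. The rule gave 82 of the 47069 gene rows in the count files, 51 of the large subunit and 31 of the small subunit. Of these, 80 passed the filter on low counts and were tested among 14263 genes, 49 of the large and 31 of the small subunit. Rpl10l and Rpl39l, known in mouse as the testis copies of Rpl10 and Rpl39, had 0 counts in every library, which allows at most 3 counts in each (0.115 to 0.147 CPM, or counts per 1000000 gene counts, a limit for counting error only).

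The cells were GFP-positive acute myeloid leukaemia cells driven by MLL-AF9, a fusion oncogene of human leukaemia, sorted from leukaemic mice of the strain labelled C57BL/7 and from bone marrow. All of them, the 0h cells included, carried TetO-Klf4, a transgene for the transcription factor KLF4 that doxycycline switches on. There were 2 libraries of each of 4 time points, 0h, 6h, 12h and 24h, and the later times were set against 0h. What the hours were counted from is not in the labels, and no untreated libraries of the later times were analysed here, so time and Klf4 induction cannot be told apart. No label ties the 2 libraries of a time to different mice. The p-values therefore rest on how far these libraries lay apart, a spread that may be technical.

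The ribosome reads messenger RNA on its small subunit and joins amino acids on its large subunit. Ribosomal protein genes are among the most highly expressed genes of a growing cell, and their products are needed in near-equal numbers. Their messenger RNAs start with a run of pyrimidines, the 5′ terminal oligopyrimidine (TOP) tract, through which mTOR signalling controls their translation. Several of the proteins also act apart from the ribosome, such as Rpl5 and Rpl11, which bind Mdm2 and so stabilise p53.

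The promoters of 9 genes that the results below turn on are given first, from RefSeq on build GRCm38.p6, each from 70 bases before to 30 bases after the RefSeq start. The capitals mark CTTTCC or CCTTTC, short pyrimidine stretches as found in TOP tracts, where these began no more than 30 bases before the start, and CCGGAAG or its complement anywhere in the stretch. Rpl7l1, Rpl11 and Rpl27 of the large subunit and Rps16 and Rps3 of the small subunit were among the genes that fell most at 24h. Rpl38, Rps28, Rps27 and Rpl13a were not called at 24h, and of these Rpl38, Rps27 and Rpl13a hold a pyrimidine stretch within 30 bases of the start. Genes not printed here went the other way. Rpl15, Rpl35a and Rplp2 hold such a stretch and had log2 fold changes of -0.29, -0.27 and -0.25 at 24h. Rpl19, Rpl39 and Rps4x hold none and were not called at 24h.
Rpl7l1 (chr17:46782627-46782726, minus strand): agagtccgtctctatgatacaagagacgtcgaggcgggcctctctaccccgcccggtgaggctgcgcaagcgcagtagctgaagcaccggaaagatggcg
Rpl11 (chr4:136053364-136053463, minus strand): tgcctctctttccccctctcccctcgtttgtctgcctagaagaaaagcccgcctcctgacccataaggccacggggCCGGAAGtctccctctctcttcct
Rpl27 (chr11:101442175-101442274, plus strand): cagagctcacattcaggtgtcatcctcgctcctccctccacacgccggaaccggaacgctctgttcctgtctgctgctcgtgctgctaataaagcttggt
Rps16 (chr7:28350619-28350718, plus strand): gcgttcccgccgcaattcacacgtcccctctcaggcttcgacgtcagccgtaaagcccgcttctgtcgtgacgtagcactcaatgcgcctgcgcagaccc
Rps3 (chr7:99483680-99483779, minus strand): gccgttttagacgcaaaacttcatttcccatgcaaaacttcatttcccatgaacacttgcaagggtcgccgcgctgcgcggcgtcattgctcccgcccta
Rpl38 (chr11:114668510-114668609, plus strand): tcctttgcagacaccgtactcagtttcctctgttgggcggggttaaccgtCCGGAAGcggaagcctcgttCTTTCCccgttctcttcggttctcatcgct
Rps28 (chr17:33824533-33824632, minus strand): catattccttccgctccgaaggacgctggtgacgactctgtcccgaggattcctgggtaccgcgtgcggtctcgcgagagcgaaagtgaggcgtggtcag
Rps27 (chr3:90213619-90213718, minus strand): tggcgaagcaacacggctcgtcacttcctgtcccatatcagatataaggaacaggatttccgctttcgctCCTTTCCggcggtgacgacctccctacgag
Rpl13a (chr7:45128716-45128815, minus strand): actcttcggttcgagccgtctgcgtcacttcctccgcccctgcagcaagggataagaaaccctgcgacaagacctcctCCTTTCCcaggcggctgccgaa

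Promoters were found for 62 of the 82 genes, with 73 starts, since 9 genes have several. CTTTCC or CCTTTC (the 2 overlap by 5 letters) lay between 30 bases before and 50 bases after 35.6% of the ribosomal protein starts, against 5.68% of 32851 starts of all genes. CCGGAAG, read on both strands over the 300 bases of a promoter, was in 35.6% of the ribosomal protein starts and 8.86% of all starts. GGGCGG was in 60.3% and 35.7%, AAGATGG in 16.4% and 6.34%, and GGGTGG in 24.7% and 31.5%. Among 20148 starts of protein-coding genes alone, the pyrimidine stretches were at 5.16% and CCGGAAG at 11.9%. GGGCGG was at 47.7% of these, AAGATGG at 6.3% and GGGTGG at 34.1%. The pyrimidine stretches lay at 45.7% of 46 large-subunit starts and 18.5% of 27 small-subunit starts, a difference that was not tested. A letter match is not a binding site, and some RefSeq starts lie away from the tract. At 24h against 0h, 23 tested genes with CTTTCC or CCTTTC had a median log2 fold change of -0.15, and 37 without had -0.18.

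The files held 20394546 to 26041347 gene counts per library. The level of Klf4, in CPM, was 2.71 and 4.42 in the 0h libraries, 152 and 151 in those of 6h, 115 and 111 in those of 12h, and 76.9 and 78.8 in those of 24h. The 12 myeloid leukaemia markers were all tested and summed to between 2040 and 2310 CPM in each library, but single markers moved. At 24h against 0h, 5 were called lower and 3 higher, beside 24.8% and 26.1% of all tested genes. Their log2 fold changes ran from -1.07 to 0.36. At 12h, 7 were called lower and 1 higher, beside 21.6% and 22.1%, and the lowest was -1.49. Among markers of other cell types, Cd3e, Cd3g, Cd2 and Trbc2 of T cells, Ms4a1 and Pax5 of B cells, and Ncr1, Klre1 and Gzma of NK cells had no count in any library. Some markers on the T-cell and B-cell lists did have counts. Of the 3 B-cell markers tested, edgeR called 1 up at 24h over 0h, with a log2 fold change of 1.90. It called the other 2 down, the larger fall being -0.78. The 1 T-cell marker tested was called up at 24h, with a log2 fold change of 0.51. The mast cell and basophil markers summed to 31.5 and 32.5 CPM at 24h, against 53.0 and 55.9 at 0h, and the stroma and endothelium markers to 181 and 191 CPM, against 227 and 235. The remaining lists summed to between 2.16 and 24.0 CPM, apart from those of NK cells, at no more than 0.125 CPM. The part of these cells in the changes below was not tested.

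Together the 82 genes took between 7.77% and 8.87% of all gene counts, and less in the later libraries. Their share was 8.72% and 8.87% in the 0h libraries, 7.77% and 8.52% in those of 6h, 8.05% and 8% in those of 12h, and 8.25% and 8.08% in those of 24h. Both libraries of each later time lay below both 0h libraries, and the 2 libraries at 6h lay further apart than those of any other time. The means were 8.79% ± 0.106 for 0h, 8.14% ± 0.531 for 6h, 8.03% ± 0.0395 for 12h and 8.17% ± 0.123 for 24h (SD, n = 2 each). With 2 libraries against 2, a two-sided exact permutation test gave p = 0.333 for each later time, the smallest p that this design allows. In bulk RNA, fewer cells of a type and less RNA per cell cannot be told apart.

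Large-subunit genes gave more counts than small-subunit genes in every library, by a ratio that was lower at 24h. It was 1.364 and 1.370 in the 0h libraries, 1.373 and 1.357 in those of 6h, 1.356 and 1.350 in those of 12h, and 1.347 and 1.331 in those of 24h. Both 24h libraries and both 12h libraries lay below both 0h libraries, while the 6h libraries lay on either side. The means were 1.367 ± 0.00423 for 0h, 1.365 ± 0.0112 for 6h, 1.353 ± 0.00482 for 12h and 1.339 ± 0.0109 for 24h (SD, n = 2 each). The exact permutation p was 1 at 6h and 0.333, the smallest possible, at 12h and at 24h.

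**Figure D1:**
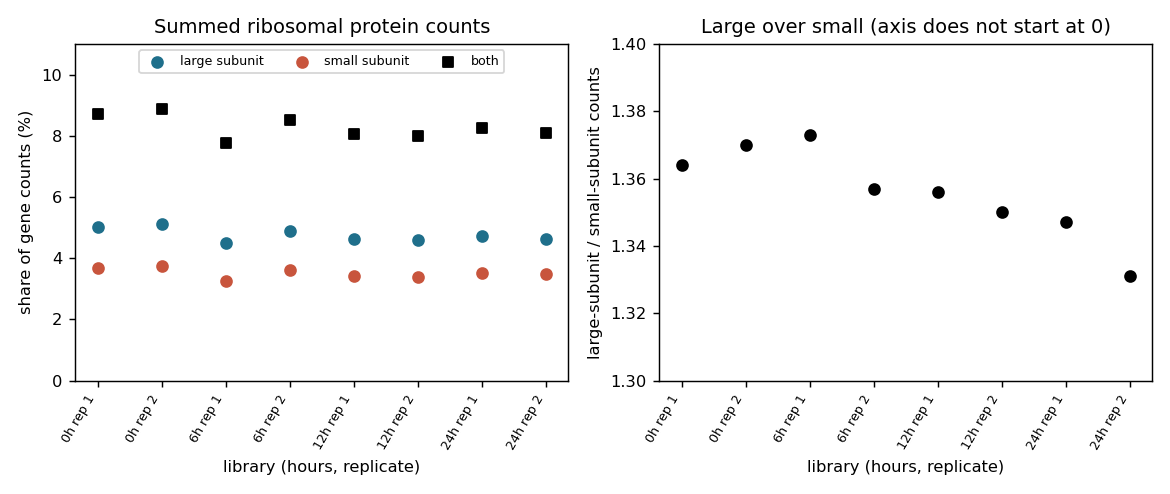
Left, the share of all gene counts (%) taken by large-subunit genes, small-subunit genes and both in each of the 8 libraries. Right, the ratio of large-subunit to small-subunit counts on an axis that does not start at 0. The summed share was highest in the 0h libraries (8.72% and 8.87%), and the ratio was lowest in the 24h libraries (1.347 and 1.331).

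At 12h most ribosomal protein genes had fallen by a small amount. Of the 80 tested, 64 were called lower than at 0h and 0 higher (edgeR quasi-likelihood test, Benjamini-Hochberg adjusted p under 0.05 over all genes tested), while 21.6% of all tested genes were called lower and 22.1% higher. The calls were 37 of 49 large-subunit genes and 27 of 31 small-subunit genes. At an unadjusted p under 0.05, 65 were lower and 0 higher, beside 7145 of the 14263 tested genes in either direction. DESeq2 called 52 lower and 0 higher, beside 16.4% of all tested genes called lower by it. The median log2 fold change was -0.20 over the 80 genes, -0.21 for the large and -0.20 for the small subunit, and 0.00 over all tested genes. In 72 of the 80 both 12h libraries lay below both 0h libraries, as in 35.3% of all tested genes. Most of these genes are highly expressed. Of 2340 other coding genes with a mean of at least 100 CPM, 44.4% were called lower at 12h (median log2 fold change -0.08), beside 64 of the 75 ribosomal protein genes of that level. With a correction of each library for GC content and transcript length, edgeR called 43 of the 80 lower and 3 higher, beside 21% of all tested genes lower. The medians were then -0.13 for the large and -0.09 for the small subunit.

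At 24h the count of genes called lower was 56 of 80, beside 24.8% of all tested genes. These were 35 of 49 large-subunit and 21 of 31 small-subunit genes, and 1 gene, Rps29, was called higher, beside 26.1% of all tested genes. The median log2 fold change was -0.17 over the 80 genes, -0.19 for the large and -0.16 for the small subunit, and 0.02 over all tested genes. In 65 of the 80 both 24h libraries lay below both 0h libraries, as in 36% of all tested genes. DESeq2 called 51 lower and 0 higher, beside 20.8% of all tested genes called lower by it. Of the 2340 other coding genes of at least 100 CPM, 47.4% were called lower at 24h (median -0.09), beside 56 of the 75 ribosomal protein genes of that level. With the correction for GC content and length, edgeR called 37 lower and 4 higher, beside 24% of all tested genes lower. The medians were then -0.11 for the large and -0.04 for the small subunit.

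At 6h, 47 of 80 were called lower and 0 higher, beside 8.58% and 9.74% of all tested genes. These were 29 of 49 large-subunit genes and 18 of 31 small-subunit genes, with a median log2 fold change of -0.14 for each subunit and 0.00 over all tested genes. At an unadjusted p under 0.05, 63 were lower and 0 higher, beside 4257 of the 14263 tested genes in either direction. DESeq2 called 35 lower and 0 higher, beside 5.29% of all tested genes called lower by it. The size of the fall rested on single libraries. Without 6h replicate 1 the medians were -0.07 for the large and -0.06 for the small subunit. Without 6h replicate 2 they were -0.22 and -0.24. Fitting the 4 libraries of 6h and 0h alone called 30 of the ribosomal protein genes lower, beside 6.92% of all genes tested in that fit. In 61 genes both 6h libraries lay below both 0h libraries, as in 29% of all tested genes. Of the other coding genes of at least 100 CPM, 21.6% were called lower at 6h, beside 47 of 75.

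Over the 3 later times together, 63 of the 80 genes differed from 0h in the edgeR quasi-likelihood F test, 37 of the large and 26 of the small subunit, beside 52.8% of all tested genes. Among genes of at least 100 CPM the counts were 63 of 75 ribosomal protein genes and 1710 of 2340 other coding genes. The count over the 80 genes was smaller without 0h replicate 2. Between successive later times few genes moved. At 12h against 6h, 6 genes were called lower and 0 higher, beside 9.79% and 10.9% of all tested genes, and 22.4% of the other coding genes of at least 100 CPM were called lower. These calls rested on single libraries. Without 6h replicate 1 the median log2 difference of 12h minus 6h was -0.134 for the large and -0.129 for the small subunit. Without 6h replicate 2 the medians were 0.023 and 0.045. The calls did not hold without 6h replicate 2 or without 12h replicate 2. Library totals alone, without TMM scaling, gave 1 lower and 1 higher, beside 6.27% of all tested genes lower. At 24h against 12h edgeR called 0 lower and 0 higher, beside 3.04% and 3.41% of all tested genes. At an unadjusted p under 0.05, 1 was lower and 7 were higher, beside 2804 of the 14263 tested genes in either direction. DESeq2 called 0 either way, beside 1.65% of all tested genes called lower by it.

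**Figure D2:**
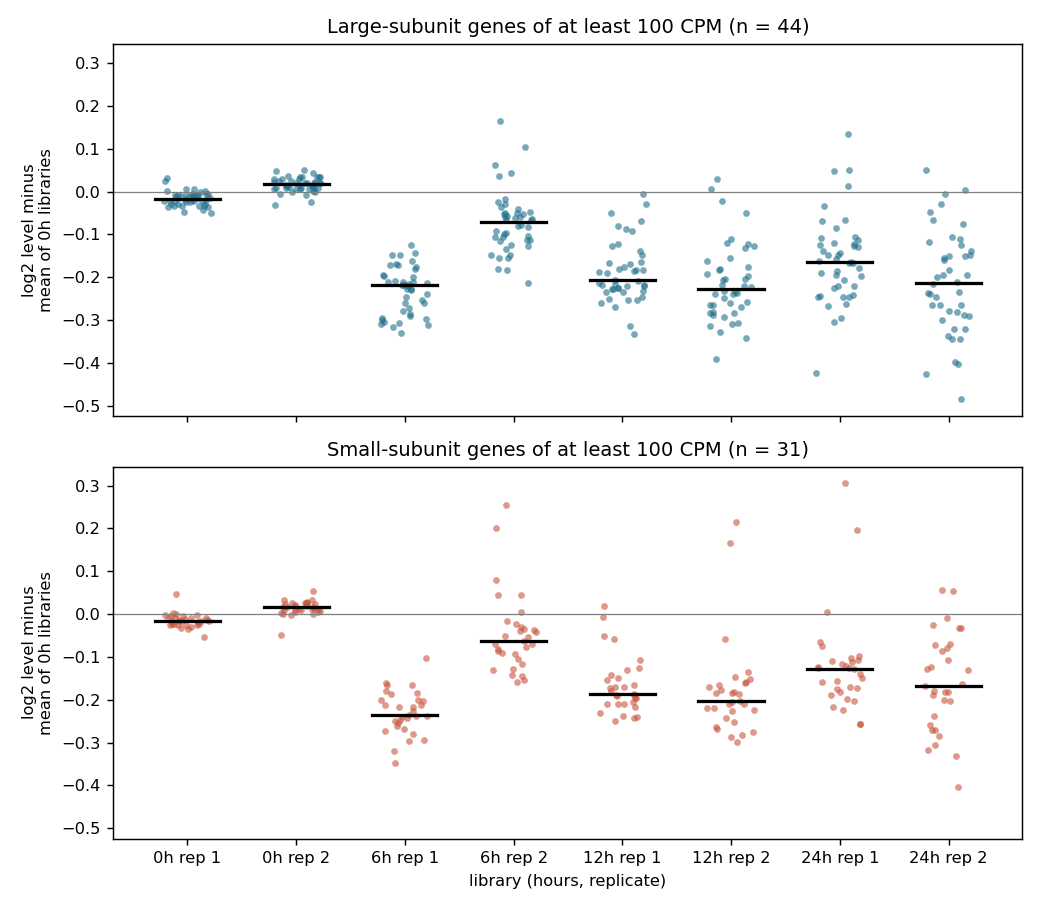
Each point is 1 ribosomal protein gene of at least 100 CPM in 1 library, as the log2 level minus the mean of the 0h libraries, for 44 large-subunit genes (above) and 31 small-subunit genes (below). Black bars are medians. The 6h replicate 1 medians lie at -0.22 and -0.24 and the 6h replicate 2 medians at -0.07 and -0.06, and the 12h and 24h medians lie between -0.13 and -0.23.

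The ribosomal stalk recruits elongation factors to the large subunit. Its base protein gene Rplp0 had 3670 and 3920 CPM at 0h, 3210 and 3550 CPM at 6h, 3230 and 3120 CPM at 12h, and 3200 and 3340 CPM at 24h. All later libraries lay below both 0h libraries. Rplp0 fell by 0.17, 0.26 and 0.22 on the log2 scale at 6h, 12h and 24h (SE 0.045 at each, adjusted p = 0.0074, 1.4e-05 and 0.00013, edgeR quasi-likelihood). The call at 6h ended without 0h replicate 2 (adjusted p = 0.19) and without 6h replicate 1 (adjusted p = 0.12).
Rplp1, of the acidic stalk pair, had 2140 and 2170 CPM at 0h, 1730 and 2020 CPM at 6h, 1810 and 1790 CPM at 12h, and 1820 and 1710 CPM at 24h, again with no overlap with 0h. It fell by 0.29 at 24h (SE 0.049, adjusted p = 5e-06, edgeR). Its partner Rplp2 had 759 and 621 CPM at 24h, against 801 and 836 at 0h, and fell by 0.25 (SE 0.056, adjusted p = 0.00034, edgeR). Its call ended with DESeq2 (adjusted p = 0.074) and without 24h replicate 2 (adjusted p = 0.088). Rplp2 had the widest gap between replicates at 24h of the large-subunit genes of at least 100 CPM.

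Rpl5 and Rpl11 form a particle with the 5S ribosomal RNA. Rpl11 had 1240 and 1260 CPM at 0h, 1020 and 1100 CPM at 6h, 1040 and 1050 CPM at 12h, and 1010 and 933 CPM at 24h. Its levels lay below 0h in all 6 later libraries, and it fell by 0.36 at 24h (SE 0.043, adjusted p = 8.3e-09, edgeR), one of the larger falls of the set. Rpl5 had 1400 and 1430 CPM at 0h, 1230 and 1300 CPM at 6h, 1240 and 1210 CPM at 12h, and 1260 and 1280 CPM at 24h. Rpl5 fell by 0.15 at 24h (SE 0.041, adjusted p = 0.002, edgeR), a call that ended under the correction for GC content and length (adjusted p = 0.38). The difference between the 2 genes was not tested.

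Among the other large-subunit genes the largest called fall at 24h was that of Rpl7l1, a paralogue of Rpl7 known in human cells from large-subunit assembly. Rpl7l1 is counted with the large subunit here by its name. Its levels were 219 and 226 CPM at 0h, 181 and 192 CPM at 6h, 179 and 169 CPM at 12h, and 166 and 168 CPM at 24h. It was below 0h in all 6 later libraries, with a log2 fold change of -0.41 at 24h (SE 0.043, adjusted p = 3.8e-10, edgeR). Rpl36, with 627 and 540 CPM at 24h against 756 and 755 at 0h, fell by 0.37 (SE 0.052, adjusted p = 2.2e-07). Rpl27 had 694 and 670 CPM at 24h against 856 and 847 at 0h, and fell by 0.32 (SE 0.043, adjusted p = 9.3e-08, edgeR for both). Neither pair of groups overlapped. Rpl15 and Rpl29 were among the 4 largest falls of the large subunit at 12h, by 0.29 and 0.27 (SE 0.043 and 0.042, edgeR adjusted p = 1.1e-06 and 2.2e-06). Rpl35a was among those at 6h, falling by 0.24 (SE 0.044, adjusted p = 9.6e-05).

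Rpl38, Rpl19 and Rpl13a of the large subunit were called at no time with the settings used throughout, though each was called under some alternatives. Rpl38, whose loss in mouse alters translation of Hox messenger RNAs, had 345 and 349 CPM at 0h, 296 and 389 CPM at 6h, 346 and 348 CPM at 12h, and 381 and 340 CPM at 24h. Its groups overlapped at each time, with a log2 fold change of 0.06 at 24h (SE 0.064, edgeR adjusted p = 0.49). Under the correction for GC content and length the sign turned, to -0.18 (adjusted p = 0.007). Rpl19 had 385 and 385 CPM at 24h, against 373 and 370 at 0h, a log2 difference of 0.05 (SE 0.054, adjusted p = 0.46). Rpl13a, which also takes part in the interferon-gamma activated inhibitor of translation, had 1100 and 960 CPM at 24h, against 1070 and 1060 at 0h (log2 difference -0.05, SE 0.053, adjusted p = 0.48). At 6h the log2 difference of Rpl13a was -0.14 (SE 0.054, edgeR adjusted p = 0.061), with both 6h libraries below both 0h libraries. It was called lower at 6h under 5 alternatives, among them no filter on low counts (adjusted p = 0.0053), and at 24h under 2. Rpl3, whose protein lies by the peptidyl transferase centre, was called lower at 12h and 24h (log2 -0.12 and -0.10, SE 0.041 each, edgeR adjusted p = 0.014 and 0.047). The call of Rpl3 at 24h ended with the replicate number as a block (adjusted p = 0.062), without either 24h library (adjusted p = 0.07 and 0.15) and under GC and length correction (adjusted p = 0.39). It also ended without either 0h library (adjusted p = 0.092 and 0.17), without either 12h library (adjusted p = 0.054 and 0.056) and with the stricter filter (adjusted p = 0.16). The 12h call ended without 0h replicate 2 (adjusted p = 0.09) and without either 12h library (adjusted p = 0.075 and 0.061).

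In the small subunit the lowest log2 fold changes at 24h were those of Rps16, Rps3, Rps2 and Rps9. Rps16 had 1030 and 1050 CPM at 0h, 856 and 952 CPM at 6h, 887 and 930 CPM at 12h, and 931 and 786 CPM at 24h, below 0h in every later library. It fell by 0.28 at 24h (SE 0.053, adjusted p = 3.5e-05, edgeR). Rps3, a protein at the messenger RNA entry, had 1500 and 1490 CPM at 24h, against 1770 and 1820 at 0h. It fell by 0.26 (SE 0.044, adjusted p = 4.5e-06, edgeR), again without overlap. Rps2 had 2700 and 2570 CPM at 24h, against 3070 and 3200 at 0h, and fell by 0.25 (SE 0.043, adjusted p = 6.5e-06, edgeR). Rps9 fell by 0.24 (SE 0.044, adjusted p = 2.4e-05), with 1310 and 1190 CPM at 24h, against 1460 and 1490 at 0h.

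Rps14 and Rps19 are small-subunit genes known from human disease, Rps14 from the 5q- syndrome and Rps19 from Diamond-Blackfan anaemia. Rps14 had 1010 and 1030 CPM at 0h, 801 and 922 CPM at 6h, 900 and 856 CPM at 12h, and 873 and 900 CPM at 24h, with its lowest value in 6h replicate 1. It fell by 0.24, 0.22 and 0.20 at the 3 times (SE 0.047 each, edgeR adjusted p = 0.00021, 0.00029 and 0.00047). Rps19 fell by 0.23 at 24h (SE 0.049, adjusted p = 0.00019), with 898 and 778 CPM, against 982 and 977 at 0h. Rps6, the substrate of the S6 kinases, had 1370 and 1450 CPM at 24h, against 1550 and 1600 at 0h. It fell by 0.16 (SE 0.042, adjusted p = 0.0014), after 0.25 at 12h (adjusted p = 9e-06, edgeR for these). Rps24 was among the 4 lowest at 12h, falling by 0.26 (SE 0.046, adjusted p = 1.7e-05).

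Other small-subunit genes were lower at 12h and not called at 24h with the settings used throughout. Rpsa, also known as the laminin receptor, had 3120 and 3230 CPM at 0h, 2900 and 2800 CPM at 12h, and 2940 and 3120 CPM at 24h. Its log2 fold change was -0.16 at 12h (SE 0.044, edgeR adjusted p = 0.0038) and -0.07 at 24h (adjusted p = 0.21), where a 24h library reached a 0h one. X-linked Rps4x had 1470 and 1530 CPM at 0h, 1400 and 1480 CPM at 6h, 1300 and 1300 CPM at 12h, and 1400 and 1430 CPM at 24h. It was called lower at 12h (-0.21, SE 0.041, adjusted p = 6.6e-05) and not at 6h or 24h (adjusted p = 0.32 and 0.068). Rps27a, which is made as a fusion with ubiquitin, fell by 0.14 at 12h (SE 0.046, adjusted p = 0.014, edgeR) and had a log2 difference of -0.08 at 24h (adjusted p = 0.14). The 12h calls of Rpsa and Rps27a ended without 0h replicate 2 (adjusted p = 0.06 and 0.26) and without 12h replicate 2 (adjusted p = 0.072 and 0.066), that of Rps27a also without 12h replicate 1 (adjusted p = 0.074), and that of Rps4x under GC and length correction (adjusted p = 0.051). That correction and library totals also ended the call of Rpsa (adjusted p = 0.11 and 0.067). The call of Rps27a ended with DESeq2 (adjusted p = 0.15) and library totals (adjusted p = 0.19), and its sign turned under the correction (log2 0.035, adjusted p = 0.56). At 24h Rps4x was called lower under 8 alternatives, among them DESeq2 (adjusted p = 0.034) and the fits without 6h replicate 1 or 2 (adjusted p = 0.011 and 0.018). Rps27a was called lower at 24h under 5, among them the fits without 0h replicate 1 (adjusted p = 0.046) and without 6h replicate 1 or 2 (adjusted p = 0.022 and 0.034).

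Rps29 was the 1 gene called higher than at 0h. It had 607 and 568 CPM at 0h, 509 and 700 CPM at 6h, 594 and 682 CPM at 12h, and 725 and 609 CPM at 24h. The lower 24h library was 609 CPM, next to 607 in the higher 0h library, and the 6h libraries lay on either side of 0h. The log2 fold change at 24h was 0.19 (SE 0.077, edgeR adjusted p = 0.044). Without 24h replicate 1 it was 0.05 (adjusted p = 0.66), without 0h replicate 2 it was 0.13 (adjusted p = 0.27), and DESeq2 gave an adjusted p of 0.52. Rps28 had 416 and 346 CPM at 24h, against 361 and 366 at 0h, with a log2 difference of 0.07 (SE 0.07, edgeR adjusted p = 0.43). Rps20 had 1010 and 1000 CPM at 24h, against 999 and 1020 at 0h, with a log2 difference of 0.00 (SE 0.048, adjusted p = 0.97). Rps27 had a log2 difference of -0.03 at 24h (SE 0.066, adjusted p = 0.71).

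**Figure D3:**
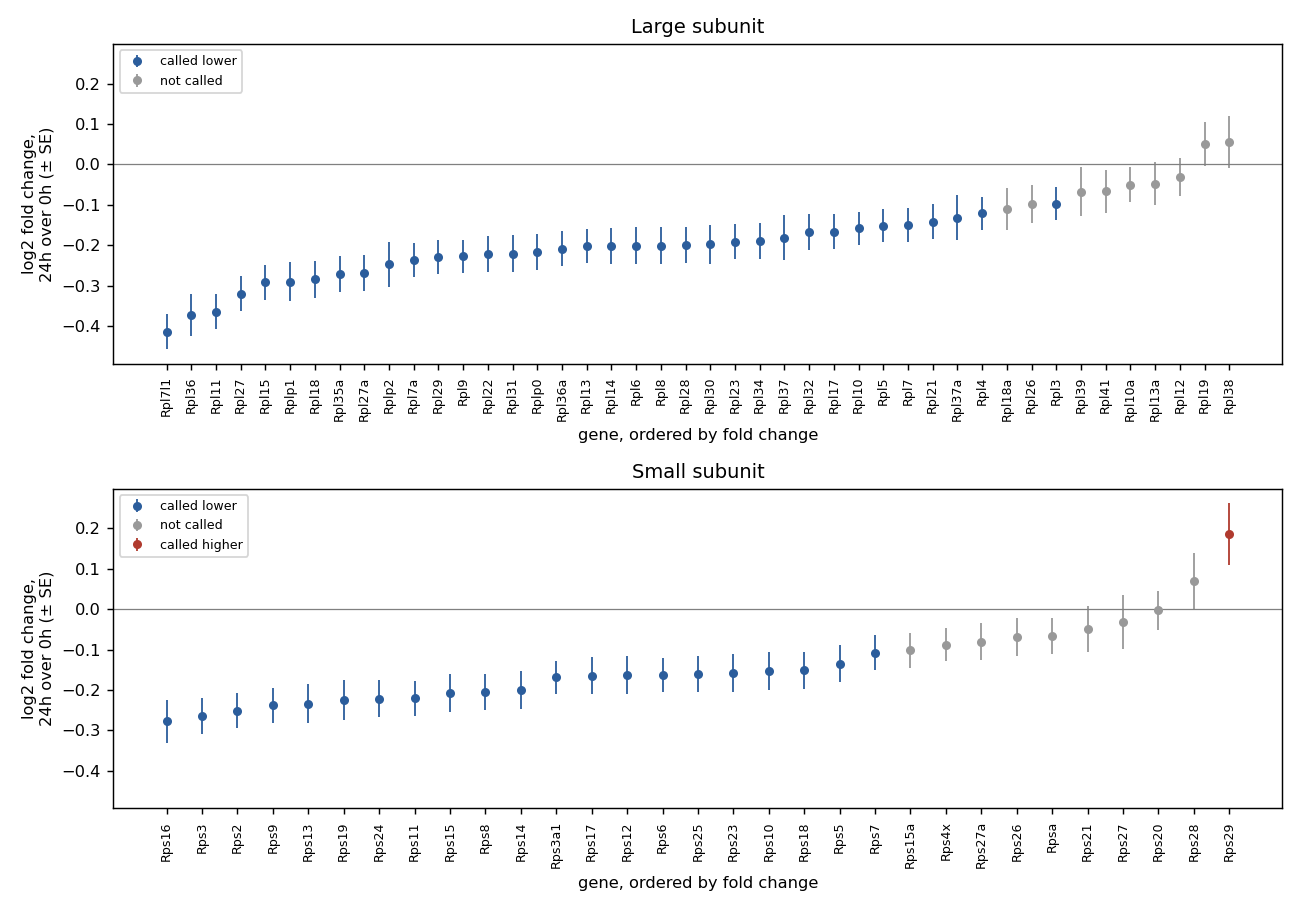
Log2 fold change at 24h over 0h with its standard error for the 75 ribosomal protein genes of at least 100 CPM, ordered within the large subunit (above) and the small subunit (below). Blue genes were called lower, red higher and grey neither. Rpl7l1 lies lowest at -0.41 and Rps29 highest at 0.19.

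Rpl22, which binds double-stranded RNA, had 508 and 470 CPM at 24h, against 567 and 573 at 0h, and fell by 0.22 (SE 0.045, edgeR adjusted p = 9.6e-05). Its paralogue Rpl22l1 had 28.4 and 21.8 CPM at 24h, against 22.9 and 20 at 0h, with a log2 difference of 0.23 (SE 0.1, adjusted p = 0.051). It was called higher under 13 alternatives, among them library totals (adjusted p = 0.019), the stricter filter (adjusted p = 0.035), GC and length correction (adjusted p = 0.00074), and the fits without 0h replicate 1 (adjusted p = 0.028) or 24h replicate 2 (adjusted p = 0.0013). The groups of Rpl22l1 overlapped, and the difference between the paralogues was not tested. Rpl7 fell by 0.15 at 24h (SE 0.043, adjusted p = 0.0037, edgeR), while Rpl7l1 fell by 0.41. Rpl10 fell by 0.16 (SE 0.041, adjusted p = 0.0016) and Rpl10l had no count. Under GC and length correction the log2 differences of Rpl7 and Rpl10 at 24h turned to 0.002 and 0.008 (adjusted p = 0.97 and 0.86), and the call of Rpl7 also ended without 24h replicate 1 (adjusted p = 0.068). Rpl39 had 656 and 714 CPM at 24h, against 714 and 720 at 0h (log2 difference -0.07, SE 0.06, adjusted p = 0.37), and Rpl39l had no count. Rpl3l, the muscle paralogue of Rpl3, had 5 to 22 counts in each library.

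Some genes of the set are measured poorly. Rpl24 had 10 to 31 counts in each library, and 47.0% of its exon bases overlap Gm28037 on the same strand, so reads from both may go uncounted. Its log2 difference at 24h was -0.45 with an SE of 0.44 (adjusted p = 0.41). Rpl23a had 43.6 and 46.1 CPM at 24h against 42.1 and 42.1 at 0h, and Rpl35 had 60 and 48.7 against 60.2 and 59.0, neither called. Pseudogenes named after these genes numbered 271, of which 196 had a count, and they took between 0.158% and 0.189% as many counts as the genes themselves. Reads from near-identical copies can be split, and 19 of the 82 genes have an exon overlapped by an antisense gene. The labels do not say whether counting used strand.

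Levels per kilobase of the principal transcript, over the 8 libraries, put Rplp1 first in the large subunit at 3800 CPM per kilobase, then Rplp0 at 2510 and Rpl41 at 2290. In the small subunit Rps2 stood at 2780, Rps12 at 2730 and Rps18 at 2330. Of the tested genes the lowest were Rpl3l at 0.31, Rpl24 at 1.32 and Rpl22l1 at 41.3 in the large subunit, and Rps20 at 266, Rps24 at 763 and Rps3 at 832 in the small subunit. The level of Rps20 rests on its only coding transcript, of 3706 bases.

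The replicates of 1 time differed more for these genes at 6h than at other times. The median of replicate 2 minus replicate 1, in log2 units, was 0.03 for 0h, 0.15 for 6h, -0.03 for 12h and -0.06 for 24h over the 80 genes. At 6h, 79 of the 80 lay higher in replicate 2, and 75 of the 75 of at least 100 CPM did so. For 2340 other coding genes of at least 100 CPM the medians were 0.01, 0.00, -0.02 and 0.00. The 6h libraries set against the mean of 0h gave medians of -0.23 for replicate 1 and -0.07 for replicate 2, so the difference between the libraries of 6h was as large as the difference of 6h from 0h. At 12h these medians were -0.19 and -0.21 and at 24h -0.15 and -0.19. The share of fragments outside annotated genes was 6.60% in 6h replicate 1 and 5.81% in replicate 2, and it was 9.04% and 9.27% at 24h, against 5.70% and 5.25% at 0h. Its part in the differences was not tested.

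**Figure D4:**
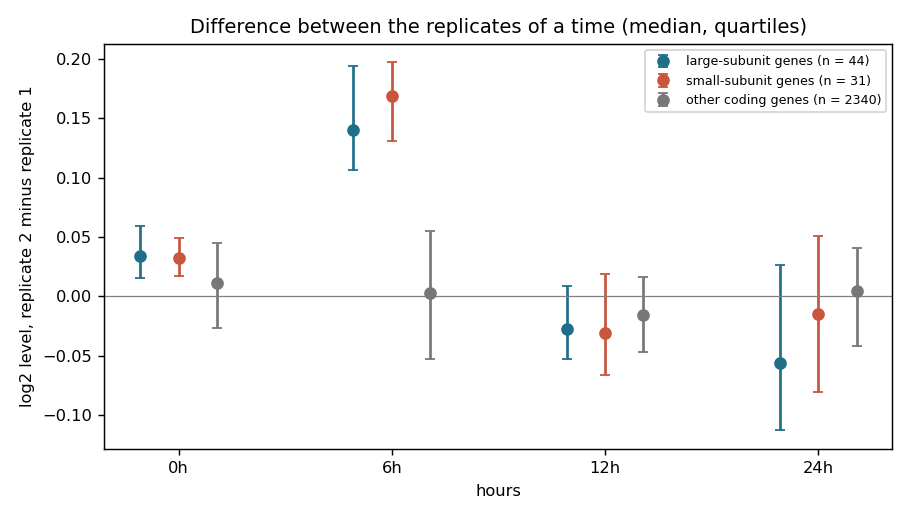
Replicate 2 minus replicate 1 of each time in log2 units, as medians with quartiles, for 44 large-subunit and 31 small-subunit genes and 2340 other coding genes of at least 100 CPM. The ribosomal protein medians lie near 0.15 at 6h and near 0 at the other times.

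The genes that encode the shortest proteins had the largest differences between the 6h replicates. Of the 75 genes of at least 100 CPM, 9 encode proteins under 100 residues (Rpl37, Rpl37a, Rpl38, Rpl39, Rpl41, Rps21, Rps27, Rps28 and Rps29). Their median difference between the 6h replicates was 0.37, against 0.17 for the 43 genes of 100 to under 200 residues and 0.11 for the 23 of 200 residues or more. Other coding genes under 100 residues (n = 50) had a median of 0.13. Across the 75 genes the difference and log2 residues correlated with r = -0.71, and over 2340 other coding genes with r = -0.55. This is a description across genes, which are not independent and share the 2 libraries.

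Few of the short genes were called. At 24h 2 of the 9 were lower and 1 higher, with a median log2 fold change of -0.05. Of the 43 genes of 100 to under 200 residues 35 were lower, with a median of -0.20, and of the 23 longer ones 19 were lower, with a median of -0.17. Of the other coding genes of at least 100 CPM at 24h, 41 of 50 under 100 residues were lower (median -0.28), 175 of 236 of 100 to under 200 residues (median -0.23) and 894 of 2054 longer ones (median -0.07). At 12h the counts were 2 of 9, 41 of 43 and 21 of 23. Of the other coding genes at 12h, 38 of 50 under 100 residues were lower (median -0.21), 158 of 236 of 100 to under 200 residues (median -0.19) and 842 of 2054 longer ones (median -0.06). The differences between ribosomal protein genes and other genes of like length were not tested. With both 6h libraries left out, which was tried after the data were seen, 68 of all 80 genes were called lower at 12h and 61 at 24h. In that fit 22.8% and 26.4% of all genes tested were called lower at 12h and 24h.

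**Figure D5:**
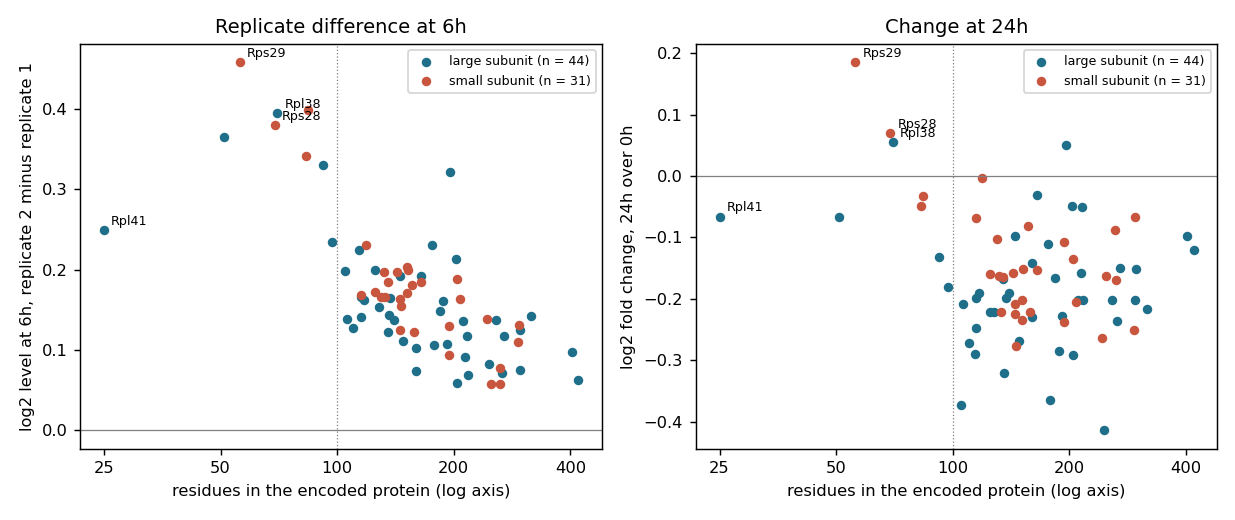
Length of the encoded protein in residues, on a log axis, against the difference between the 6h replicates (left) and the log2 fold change at 24h over 0h (right) for 75 ribosomal protein genes of at least 100 CPM, coloured by subunit. The dotted line marks 100 residues, below which the 6h differences lie between 0.23 and 0.46.

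Of the 80 tested genes, 30 hold annotated small nucleolar RNA genes, 58 in all, and 23 of those 30 were lower at 24h, against 33 of the 50 others. Of the 4 X-linked genes (Rpl10, Rpl36a, Rpl39 and Rps4x), 2 were lower at 24h, as were 54 of 76 autosomal genes. These counts stand beside 24.8% of all tested genes and 47.4% of the other coding genes of at least 100 CPM. The differences between these groups were not tested.

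Other gene groups of the translation machinery were read in the same fit, from lists chosen with earlier results of these data known. Among ribosomal protein genes outside the name rule, Rps27l fell by 0.49 at 24h (SE 0.049, adjusted p = 1.6e-10, edgeR). The p53 target Rps27l had 260 CPM on average at 24h against 364 at 0h. Fau fell by 0.16 (SE 0.046, adjusted p = 0.0046) and Rpl36al by 0.24 (SE 0.043, adjusted p = 1.5e-05), and Rack1, a small-subunit scaffold, by 0.14 at 12h (SE 0.044, adjusted p = 0.011) with -0.09 at 24h (adjusted p = 0.08).

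The counts of the lists below stand beside 24.8% of all tested genes called lower and 26.1% higher at 24h, and 47.4% lower and 21.4% higher among the other coding genes of at least 100 CPM. The 77 tested mitochondrial ribosomal protein genes had 62 called lower at 24h and 0 higher, with a median log2 fold change of -0.29, and 64 at 12h with a median of -0.26. At 6h, 25 were lower. The lowest adjusted p were of Mrpl41 (log2 -0.66, SE 0.058, 5.3e-12) and Mrpl11 (-0.66, SE 0.06, 1.3e-11, edgeR for both). Of 13 eIF3 subunit genes 10 were lower at 24h and 1, Eif3c, was higher. In a list of 8 elongation factor and related genes 5 were lower and 1 was higher. The higher one was Eef2k, which encodes the kinase of the elongation factor eEF2 and is not itself an elongation factor. The 7 ribosomal protein chaperone genes tested gave 6 lower at 24h, among them Grwd1 and Tsr2 (log2 -0.51 and -0.58, SE 0.057 and 0.069, edgeR adjusted p = 1.8e-09 and 6.7e-09). In 21 other TOP messenger RNAs 10 were lower and 3 higher, Vim with a log2 difference of 0.61 (SE 0.042, adjusted p = 6.3e-15) and Gas5, a small nucleolar RNA host without a protein, of 0.36 (SE 0.046, adjusted p = 3.5e-08). In 19 genes of TOP and S6 kinase signalling 10 were higher and 4 lower at 24h. Sesn2, an inhibitor of mTOR, rose by 0.93 (SE 0.051, adjusted p = 1.2e-17) and Pdcd4, an S6 kinase substrate that restrains translation, fell by 0.65 (SE 0.047, adjusted p = 4e-14, edgeR).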

How the data were processed

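Gene counts were deposited by the authors as 1 file per library. The submitters' processing notes name STAR, SAMtools 1.3, HTSeq 2.0.3 and build mm10, with no STAR version. Annotation release and strand setting were not given in the sources used here. The TruSeq libraries were made from total RNA, per the labels' protocols. HTSeq's 5 summary rows were left out of totals, and fragments outside annotated genes were 5.25% to 9.27%.

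Symbols, subunits and lengths came from GENCODE M21, which matched 46574 of 47069 rows. Genes were filtered with filterByExpr and scaled by TMM, and 8 libraries were fitted with 1 mean per time in edgeR 4.0.16 (R 4.3.3; glmQLFit, glmQLFTest, two-sided). P-values were adjusted by Benjamini-Hochberg over 14263 genes and called under 0.05. SE is the size of the log2 fold change over the square root of F. CPM use TMM-scaled totals of the tested genes, and replicate differences add a prior count of 2. The alternatives were DESeq2 1.42.0, other scalings and filters, GC and length correction, pseudogene counts, thinning, a replicate block and leaving out libraries. The script was tested on simulated data.

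The members and gene lists were chosen with earlier results of these data known. Named were the 4 lowest and 4 highest log2 fold changes per subunit and time against 0h (2 each between later times), genes called against the majority, the largest replicate differences, genes by role, the 3 highest and 3 lowest levels per kilobase, and 2 genes per comparison list. Genes below 100 residues, the promoters printed, and further genes of the comparison lists were picked after their values were seen. Some genes of the comparison lists are not reported here.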

Additional observations from a re-analysis of the deposited data

Results flagged for a closer look

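In 6 genes the difference from 0h was not the same at 12h and at 6h, by the edgeR quasi-likelihood test of 12h against 6h over all genes. Rps4x, the small-subunit gene among them, was lower at 12h than at 6h by a log2 difference of -0.147 (SE 0.041, adjusted p = 0.0086), with 1300 and 1300 CPM at 12h, against 1400 and 1480 at 6h. The 5 large-subunit genes were Rpl6 at -0.136 (adjusted p = 0.032), Rpl7 at -0.131 (adjusted p = 0.027), Rpl29 at -0.129 (adjusted p = 0.027), Rpl36a at -0.127 (adjusted p = 0.032) and Rpl7a at -0.120 (adjusted p = 0.039). The 6 stand among 80 tested genes, a smaller share than the 9.79% of all tested genes called lower in this comparison. The calls rested on single libraries. Without 6h replicate 1 the median log2 difference of 12h minus 6h was -0.134 for the large and -0.129 for the small subunit. Without 6h replicate 2 the medians were 0.023 and 0.045. The calls did not hold without 6h replicate 2 or without 12h replicate 2.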

How the results depend on the processing

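Of 437 alternative values of counts, medians, shares and ratios, 360 stayed within the limits set for them (a count within 1.5 times, another value within the SD between replicates). Of 2782 values of named genes, 2544 kept their call, and called genes among them also kept their direction. A turn of sign where neither fit made a call was not counted as a change. The cause of the other changes was not tested. Whether the replicate numbers pair the libraries could not be told. Replicate differences of different times correlated between -0.017 and 0.021 over all genes. Over genes of at least 100 CPM they correlated between -0.295 and 0.477, the highest being that of 0h and 6h. With the replicate block 45, 64 and 54 genes were called lower at 6h, 12h and 24h against 0h, 5 at 12h against 6h, 0 at 24h against 12h and 63 over the time course. Of all tested genes, the fit with the block called 8.08%, 21.1% and 24.4% lower at 6h, 12h and 24h against 0h. It called 9.26% lower at 12h against 6h and 2.71% at 24h against 12h. With 2 libraries a time, depth limits genes such as Rpl24 and Rpl3l, at 5 to 31 counts. A library left alone at its time is assumed to vary like the others.

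Fitting only the 4 libraries of a comparison gave 30 genes lower at 6h, 2 higher at 12h and 2 higher at 24h against 0h, 1 lower at 12h against 6h, and 2 higher at 24h against 12h. GC and length correction gave 3 higher at 12h, 37 lower and 4 higher at 24h, 11 lower and 1 higher at 12h against 6h, and 1 lower and 3 higher at 24h against 12h. It moved the large-subunit medians to -0.134 at 12h and -0.112 at 24h, and the small-subunit medians to -0.088 and -0.044. With the mean gene also centred, which moved the median of all genes by -0.118 at 12h and -0.125 at 24h, the large-subunit median at 24h was -0.265, 34 genes were lower at 12h against 6h, and 1 was lower and 1 higher at 24h against 12h. Library totals without TMM gave 3 higher at 24h, 1 lower and 1 higher at 12h against 6h, 1 higher at 24h against 12h, and medians of -0.143 and -0.127 (large subunit, 12h and 24h) and -0.131 and -0.096 (small subunit). With no filter 1 gene was higher at 12h, 2 at 24h, 14 lower and 1 higher at 12h against 6h, and 2 lower at 24h against 12h. The stricter filter gave 2 higher at 24h and 3 lower at 12h against 6h. DESeq2's test gave 0 higher at 24h and 3 lower at 12h against 6h, and its size factors gave 0 higher at 24h. Without both 6h libraries, tried after seeing the data, 1 gene was higher at 12h, 2 at 24h and 2 at 24h against 12h. Over all genes, the lower calls at 12h against 6h were 9.02% with 4 libraries, 10.1% with GC and length correction and 20% with the mean gene centred. They were 6.27% with library totals, 5.36% with no filter, 11.1% with the stricter filter and 5.45% with DESeq2's test. Higher calls over all genes at 24h against 0h ranged from 2829 (DESeq2's test) to 4494 (library totals). The log2 share at 24h over 0h was -0.106, and -0.160 over all fragments. The log2 ratio of large to small counts per exon kilobase was -0.015, -0.024 and -0.050 at 6h, 12h and 24h over 0h.

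Leaving out 1 library at a time gave 14 to 74 genes lower and 0 to 3 higher at 6h, 55 to 68 lower and 0 to 1 higher at 12h, and 47 to 61 lower and 0 to 3 higher at 24h. It gave 0 to 49 lower and 0 to 13 higher at 12h against 6h, 0 to 3 lower and 0 to 2 higher at 24h against 12h, and 48 to 76 over the time course. The large-subunit medians ranged from -0.220 to -0.069 at 6h and from -0.134 to 0.023 at 12h against 6h, and the small-subunit medians from -0.238 to -0.064 and from -0.129 to 0.045. The log2 share at 6h over 0h ranged from -0.179 to -0.046. Turns of sign are listed only where the main or the alternative fit made a call. They came at 6h when 1 library was left out, over ranges of -0.232 to 0.163 for Rpl38, -0.182 to 0.198 for Rps28 and -0.207 to 0.252 for Rps29. Under GC and length correction they came at 24h for Rpl38 (-0.177, or -0.330 with the mean gene centred), Rpl10 (0.008), Rpl7 (0.002) and Rps12 (0.011), and at 12h for Rps27a (0.035).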
